A study of Mus musculus with 8 samples.

Results

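Genes of the structural cells of the lung were followed through RNA-seq libraries of sorted NK cells. The list holds 41 of the 48321 gene symbols counted in each library: 15 genes of epithelial cells, 16 of endothelial cells and 10 of stromal cells. They were picked by name as transcripts that epithelium, vessel wall and connective tissue of the lung are known to make, with earlier results of these data known, while the rule itself uses no measured value. The libraries came from NK cells of C57/Bl6 mice, sorted as CD45+ TCRb- NK1.1+ cells from lung or spleen. WT mice carried the intact Ccl5 locus, and KO mice carried a homozygous germline deletion of Ccl5-PE, the proximal enhancer of the chemokine gene Ccl5 (Ccl5ΔPE/ΔPE). The study's methods give the mice as young animals of mixed sexes, and the cells were freshly sorted. Each of the 4 groups (WT lung, KO lung, WT spleen, KO spleen) had 2 libraries. Whether a group's pair of libraries stands for separate mice is not stated in the labels. Every p-value below therefore measures only the spread between these libraries, which may be technical.

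The gas exchange surface of the lung is built from flat alveolar type 1 cells and from alveolar type 2 cells, which secrete surfactant, a mix of lipids and surfactant proteins that keeps the air sacs open. Club cells and other secretory cells of the airways release small secretoglobins into the lining fluid. A dense net of capillary endothelium lies under this epithelium, and fibroblasts and other stromal cells lay down collagen, elastin and proteoglycans around it. None of these cells carries CD45, so none belongs in a gate for NK cells, although some of the genes listed are also made by leukocytes or platelets (Pecam1, Thbd, Sparc, Egfl7, Epas1, Krt8 and Krt18 were noted as such). In bulk RNA, fewer cells of a type and less RNA per cell cannot be told apart.

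The promoters of 3 members are shown, 1 for each pattern that separated the genotypes in lung: a surfactant gene that was higher in KO, an airway gene read in KO alone, and an endothelial gene that was lower in KO. Each run is 300 bases of RefSeq sequence (GRCm38.p6), from 250 before to 50 after an annotated start, on the plus strand, with any TATAAA in capitals. The windows are chr14:41131538-41131837 for Sftpa1, chr2:154190568-154190867 for the first of the starts of Bpifb1, and chr17:43360181-43360480 for the first of the starts of Adgrf5.
Sftpa1: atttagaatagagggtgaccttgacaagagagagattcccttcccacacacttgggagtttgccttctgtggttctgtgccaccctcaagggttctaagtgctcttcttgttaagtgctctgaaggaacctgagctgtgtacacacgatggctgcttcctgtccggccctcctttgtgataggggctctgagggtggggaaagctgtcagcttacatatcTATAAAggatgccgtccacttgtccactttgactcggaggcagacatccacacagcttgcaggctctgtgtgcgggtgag
Bpifb1: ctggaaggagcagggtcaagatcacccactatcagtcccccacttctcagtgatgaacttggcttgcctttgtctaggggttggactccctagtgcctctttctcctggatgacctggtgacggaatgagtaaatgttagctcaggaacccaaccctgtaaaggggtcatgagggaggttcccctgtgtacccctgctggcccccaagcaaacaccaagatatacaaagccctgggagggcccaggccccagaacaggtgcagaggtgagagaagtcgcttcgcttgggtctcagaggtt
Adgrf5: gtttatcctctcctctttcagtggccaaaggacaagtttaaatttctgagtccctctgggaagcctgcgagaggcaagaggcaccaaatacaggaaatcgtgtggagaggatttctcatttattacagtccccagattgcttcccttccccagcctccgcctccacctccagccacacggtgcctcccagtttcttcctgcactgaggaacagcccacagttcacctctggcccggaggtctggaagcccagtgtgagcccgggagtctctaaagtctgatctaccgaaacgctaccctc
The Sftpa1 window held TATAAA at position -30 from the start, and the other 2 windows held none on either strand. Of the 41 members, 26 had such windows in the RefSeq table, 32 windows in all. TATAAA stood on either strand in 15.6% of them and in 13.6% of all 32851 promoter windows of the table. CCAAT stood in 18.8% against 37.4%, and GGGCGG in 31.2% against 35.7%. These matches describe the letters in the windows and nothing more.

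Between 3132963 and 26482366 reads per library were counted on genes, and KO spleen replicate 2 was by far the deepest library. A gene was called above the floor in a library with more than 3 reads, which is 0.115 CPM (reads scaled by library size) in the deepest and 0.979 CPM in the shallowest. Intervals and floors cover counting error only. Ccl5 itself had between 15660 and 19520 CPM in the 4 WT libraries and between 2432 and 3195 CPM in the 4 KO libraries. All 9 NK cell markers examined, among them Nkg7 and Gzma, were above the floor in every library. For members with at least 10 reads, the variance between the 2 libraries of a group was 0.976 to 1.20 times that of counting alone in lung and 0.916 to 1.26 times in spleen.

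Structural transcripts were read in the libraries of NK cells from lung and were nearly absent from those of spleen, apart from a few genes. Of the 41 members, 31 were above the floor in both WT lung libraries and 33 in both KO lung libraries, against 5 in WT spleen and 5 in KO spleen. In all 4 lung libraries 28 members were above the floor, namely 6 of 15 epithelial, 15 of 16 endothelial and 7 of 10 stromal genes. Of these 28, 19 had no read in any spleen library, and over all 11888 genes above the floor in the 4 lung libraries that share was 0.866%. The 19 were 5 epithelial, 8 endothelial and 6 stromal genes. Only Pecam1, Adgrl4 and Calcrl were above the floor in every spleen library.

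The summed level followed the same split by organ. The epithelial sum was 268 ± 4.25 CPM in WT lung, 423 ± 24.5 in KO lung, 0.717 ± 0.308 in WT spleen and 3.27 ± 0.454 in KO spleen (SD, n = 2 in each group). The endothelial sum was 310 ± 13.9, 395 ± 2.88, 137 ± 4.80 and 142 ± 5.75 CPM in the same order. The stromal sum was 57.0 ± 0.770, 77.9 ± 3.11, 0.425 ± 0.105 and 0.0383 ± 0.0542 CPM. All 3 sums were higher in both KO lung libraries than in both WT lung libraries, and the groups did not overlap. In lung, KO stood to WT at a ratio of 1.58 for the epithelial, 1.27 for the endothelial and 1.37 for the stromal sum. The epithelial rise lay in the alveolar type 2 genes, at 168 ± 1.19 CPM in WT lung and 320 ± 24.2 in KO lung. The airway secretory genes, with Bpifb1 included, summed to 97.7 ± 5.51 CPM in WT lung and 99.5 ± 1.24 in KO lung, and the groups overlapped. Sftpc alone made up much of the epithelial sum, and without it the epithelial ratio was 1.37. Without Gpx3 the stromal ratio was 1.13. The 9 NK cell markers summed to 52200 to 53500 CPM in WT lung and 41700 to 42100 CPM in KO lung. Gzma and Nkg7 carried most of that sum and of its fall. No sum without them is given, so the fall does not describe the 9 markers as a whole. Of the 9, 5 were called lower and 2 higher by edgeR, where 26.4% of all genes tested were lower and 29.2% higher. In spleen the 9 summed to 36900 to 37400 CPM in WT and 47600 to 49900 CPM in KO. Nkg7 (log2 fold change -0.51, SE 0.03, edgeR adjusted p = 3.43e-15), Gzma (-0.46, SE 0.04, edgeR adjusted p = 1.01e-13) and Klrb1c, the gene of the sorting marker NK1.1 (-0.29, SE 0.03, edgeR adjusted p = 1.93e-09), were among those lower in KO lung. Ptprc, the gene of the sorting marker CD45, was not called there (-0.0015, SE 0.03, edgeR adjusted p = 0.976). The part of these genes in the structural values was not tested.

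**Figure D1:**
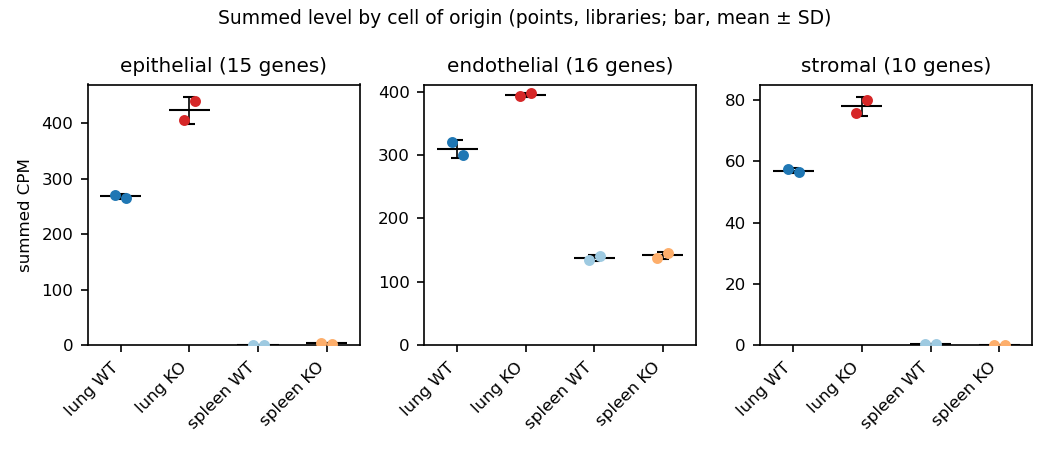
Summed CPM of the epithelial, endothelial and stromal members (vertical axes, linear and starting at 0) in the 4 groups. Points are libraries, and the bar and whiskers are the mean ± SD of 2 libraries. Both KO lung libraries lie above both WT lung libraries in each panel, and only the endothelial sum stays well above 0 in spleen, at 137 and 142 CPM.

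By organ, the endothelial sum was the one shared with spleen. Lung stood to spleen at 2.26 in WT and 2.79 in KO for the endothelial genes, at 374 and 130 for the epithelial genes, and at 134 in WT for the stromal genes. In KO spleen the stromal genes had 2 reads in all, and the ratio of 2035 has a counting interval of 316 to 9453. Without Pecam1, Adgrl4 and Calcrl, the endothelial ratios were 48.6 in WT and 138 in KO, an alternative chosen after seeing the data.

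All genes were tested with the quasi-likelihood method of edgeR, with p-values adjusted by Benjamini and Hochberg's procedure over 12595 genes and called at an adjusted p under 0.05. Of the 41 members, 31 passed the filter on low counts. In WT, 29 of the 31 were higher in lung, 1 was lower and Bpifb1 was not called, where 27.7% of all genes tested were higher and 29.3% lower. In KO, 31 of 31 were higher in lung, where 33.9% of all genes were higher and 31.7% lower. Most of these members passed the filter through their lung reads alone and so had to differ by organ, and the counts are given as a description. The read bounds over all 41 members carry the organ comparison instead.

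**Figure D2:**
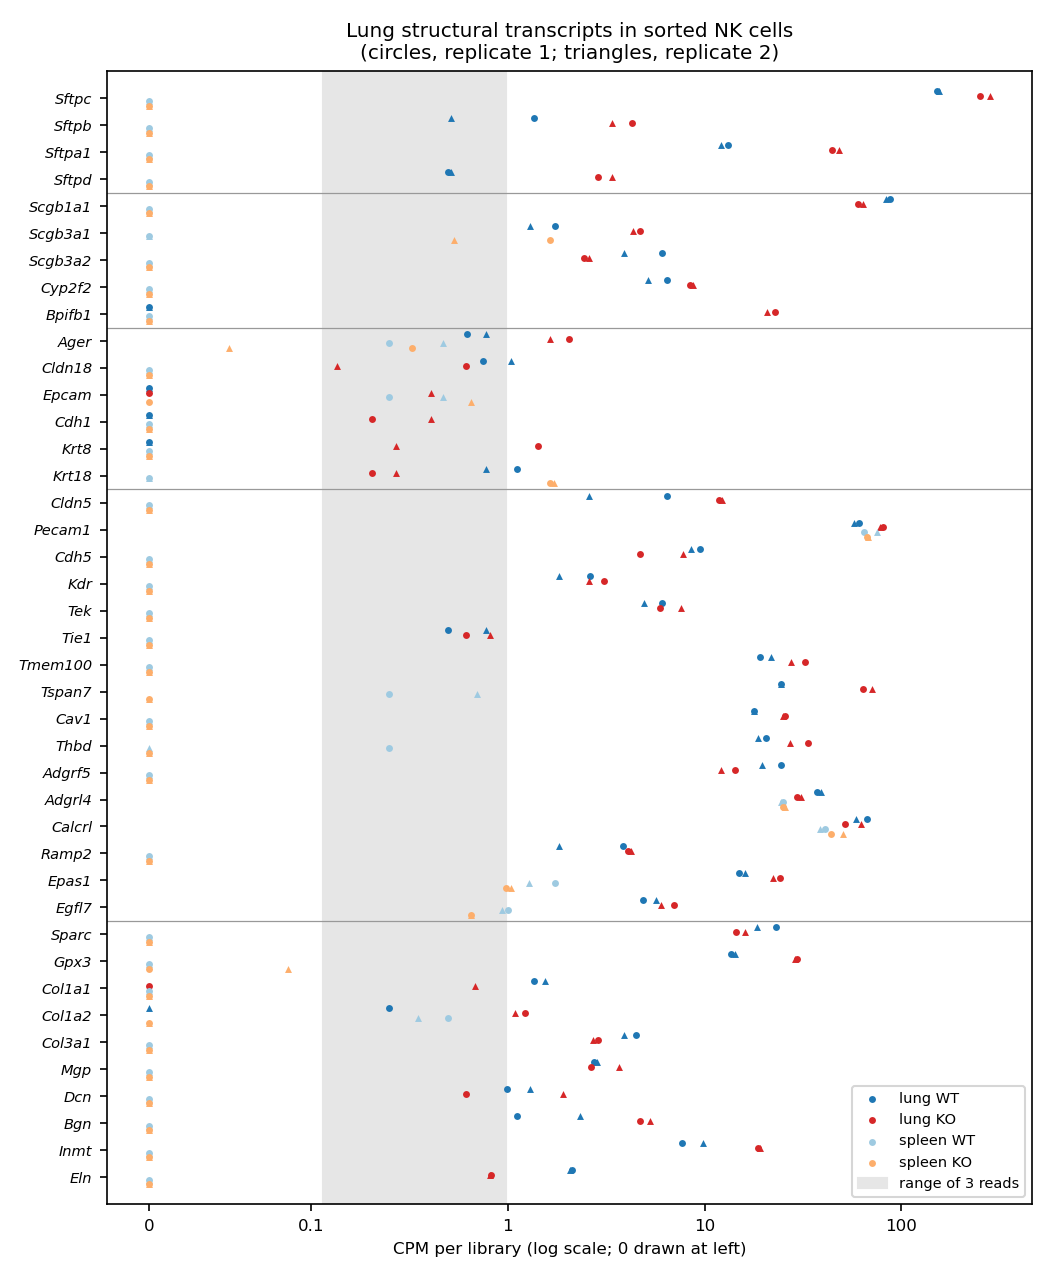
CPM of each of the 41 members in the 8 libraries on a log axis, with a value of 0 drawn at the left and a grey band for the CPM that 3 reads make in the libraries. Circles are replicate 1 and triangles replicate 2, in colours for the 4 groups, and lines part the alveolar type 2, airway secretory, alveolar type 1 and general epithelial, endothelial, and stromal genes. Of the 41 members, 28 have no read in any spleen library, and Pecam1, Adgrl4 and Calcrl lie close together in both organs.

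The surfactant gene Sftpc of alveolar type 2 cells gave more reads than any other member in each lung library. Sftpc (chr14:70520949-70524081, minus strand, GRCm38 as for all gene positions), which encodes surfactant protein C and is the usual marker of these cells, had 1224 and 601 reads in WT lung, 1227 and 2073 in KO lung, and 0 in all 4 spleen libraries. Against a floor of 3 reads over the spleen group, it was at least 642-fold higher in lung than in spleen in WT and at least 2620-fold higher in KO. Per kilobase of exon, the scale on which genes can be compared with each other, Sftpc stood at 149 CPM in WT lung, above 97.4% of 12223 ranked genes, and at 258 CPM in KO lung, above 98.6%. Spleen libraries were thus at 0 for a gene that ranked among the more abundant transcripts of the lung libraries.

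All 4 surfactant genes had more CPM in KO lung, and the 2 well read in both genotypes, Sftpc and Sftpa1, rose by the test. Sftpc was 154 ± 2.49 CPM in WT and 267 ± 21.8 CPM in KO (SD, n = 2), a log2 fold change of 0.80 (SE 0.06, edgeR adjusted p = 2.57e-14). Sftpa1 (chr14:41131782-41136452, plus strand), the collectin surfactant protein A whose promoter is shown above, had 106 and 47 reads in WT and 218 and 355 in KO, with 0 in spleen. It rose by 1.86 (SE 0.13, edgeR adjusted p = 1.39e-14). Sftpb, a hydrophobic surfactant protein, had 11 and 2 reads in WT against 21 and 25 in KO, a log2 fold change of 1.78 that became 2.82 without WT lung replicate 1. Sftpd, another collectin, had 4 and 2 against 14 and 25 (log2 fold change 2.62). Sftpb and Sftpd passed the filter on low counts through their KO lung libraries and so had to be higher there, and their values are a description with no test. For each of the 4 genes both KO libraries were above both WT libraries in CPM. Sftpc was no longer called when a coefficient of variation of 0.2 was assumed (adjusted p = 0.0544).

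The airway secretory genes did not move together. Scgb1a1 (chr19:9083636-9087958, minus strand), the club cell secretoglobin, had 702 and 322 reads in WT lung, 295 and 470 in KO lung and 0 in spleen. It fell from 85.3 ± 2.73 to 62.2 ± 2.52 CPM (SD, n = 2), a log2 fold change of -0.46 (SE 0.08, edgeR adjusted p = 5.66e-06), which was lost with the coefficient of variation set at 0.2 (adjusted p = 0.363). Per kilobase it stood at 179 CPM in WT lung, above Sftpc, and at 131 CPM in KO lung, below Sftpc. Lung exceeded spleen at least 360-fold in WT and at least 608-fold in KO.

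The other secretoglobins parted. Scgb3a2, also made by club cells, had 49 and 15 reads in WT lung and 12 and 19 in KO lung, and fell by 1.07 on the log2 scale (SE 0.32, edgeR adjusted p = 0.00433). That call was lost without WT lung replicate 1 (adjusted p = 0.368), without KO lung replicate 2 (0.0575), with DESeq2 (0.22) and with the coefficient of variation set at 0.2 (0.097). Scgb3a1 had 14 and 5 reads in WT lung and 23 and 32 in KO lung, a log2 fold change of 1.49. It passed the filter on low counts through its KO lung libraries and so had to be higher there. Its lung values by genotype are a description with no test. Scgb3a1 was also the airway gene with reads in spleen, with 5 and 14 in KO spleen and 0 in WT spleen. Cyp2f2, a cytochrome P450 of club cells, had 52 and 20 reads in WT and 41 and 64 in KO, and was not called (log2 fold change 0.51, SE 0.23, edgeR adjusted p = 0.0572). With library totals it was called (adjusted p = 0.024), as it was in a fit of the 4 lung libraries alone (0.0488).

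Bpifb1 (chr2:154190818-154220369, plus strand), a secreted protein of airway mucous and club cells in the family of lipid-binding BPI proteins, had no read in either WT lung library and 111 and 153 reads in KO lung. It was at least 85.6-fold higher in KO than in WT in lung. It passed the filter on low counts through its KO lung libraries and so had to differ, and the bound is a description with no test. It had no read in spleen, so lung exceeded spleen at least 210-fold in KO, while no fold exists in WT. Of the reads on Bpifb1 and Scgb1a1 together, Bpifb1 held 27.3% (95% Wilson interval 23.2 to 31.9) and 24.6% (21.3 to 28.1) in the KO libraries. In the WT libraries it held 0 of 702 and 0 of 322, with upper Wilson limits of 0.544% and 1.18%.

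Alveolar type 1 and general epithelial genes were near the floor, and none of the 6 passed the filter on low counts. Their sum was 2.54 ± 0.0736 CPM in WT lung and 3.82 ± 0.972 in KO lung (SD, n = 2), against 0.717 ± 0.308 in WT spleen and 2.19 ± 0.321 in KO spleen. Ager, the receptor that marks alveolar type 1 cells, had 5 and 3 reads in WT lung, 10 and 12 in KO lung, 1 and 4 in WT spleen and 1 and 1 in KO spleen. Epcam and Cdh1, adhesion molecules that most epithelia carry, had no read in WT lung and 3 and 4 reads over the 2 KO lung libraries. The broadest epithelial markers were thus at or next to 0 in libraries with at least 601 reads of Sftpc.

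The keratins Krt8 and Krt18 usually pair in simple epithelia, and gave most of their reads in different groups here. Krt8 had 7 and 2 reads in KO lung and none elsewhere. Krt18 had 9 and 3 reads in WT lung, 1 and 2 in KO lung, 0 in WT spleen and 5 and 45 in KO spleen. In CPM, Krt18 was 1.68 ± 0.0646 in KO spleen (SD, n = 2), so both KO libraries lay above both WT spleen libraries, at least 7.18-fold by the bound, with no test. Cldn18, a tight junction claudin of alveolar epithelium, had 6 and 4 reads in WT lung and 3 and 1 in KO lung. Epcam had 1 and 4 reads in WT spleen and 0 and 17 in KO spleen, and these groups overlapped.

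Across all classes in lung, 16 of the 31 tested members were higher in KO (51.6%) and 6 lower (19.4%), where 29.2% of all genes tested were higher and 26.4% lower. The median log2 fold change was 0.51 over the tested members and 0.02 over all genes tested, and 0.40 over the 40 members with a value when a member at 0 reads was set at its bound. By class, 6 epithelial genes rose and 2 fell, 7 endothelial genes rose and 2 fell, and 3 stromal genes rose and 2 fell. Sftpb, Sftpd and Bpifb1 passed the filter on low counts through their KO lung libraries and so had to be higher there. Of the other 28, above the floor in all 4 lung libraries, 13 rose and 6 fell. These counts still hold Scgb3a1 and Bgn, which passed the filter only with their KO lung libraries, and Eln, which passed through WT lung. The filter favoured the direction of those genes, and their calls are no test. The shares, medians and class counts above keep all of these genes. Sftpb, Sftpd, Bpifb1 and Scgb3a1 are among the epithelial rises, Bgn among the stromal rises and Eln among the stromal falls. The epithelial calls left are rises of Sftpc and Sftpa1 and falls of Scgb1a1 and Scgb3a2. DESeq2 called 12 of the members (10 higher, 2 lower), and a coefficient of variation set at 0.2 left 10, all higher, against an estimated common coefficient of 2.5%. The shares over all genes come from the main fit only, so the counts under these settings have no background beside them. Among the 28 above the floor in all 4 lung libraries, Sftpa1, Cldn5, Tspan7, Gpx3 and Inmt were called under every alternative tried.

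**Figure D3:**
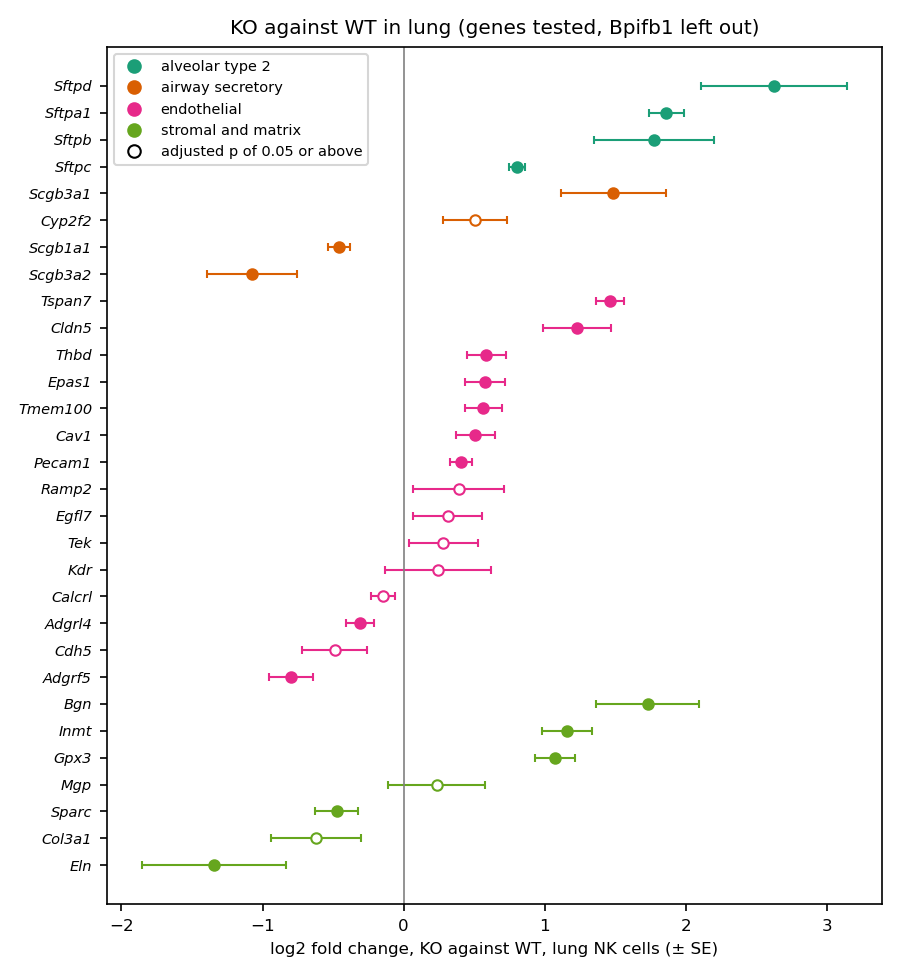
Log2 fold change of KO against WT in lung NK cells (horizontal axis, ± SE from edgeR) for the 30 tested members other than Bpifb1, which had no WT read. Colours give the cell of origin, and open circles are genes with an adjusted p of 0.05 or above. All 4 surfactant genes lie right of 0, from 0.80 to 2.62, while the airway, endothelial and stromal genes lie on both sides. Sftpb, Sftpd and Scgb3a1 passed the filter through KO lung alone, Bgn only with KO lung, and Eln through WT lung alone. These genes are shown with no test.

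Endothelial genes gave reads above the floor in every lung library for 15 of 16 members. Of these 15, 7 rose in KO, 2 fell and 6 were not called. Over all genes tested, 29.2% were higher and 26.4% lower. Tspan7 (chrX:10485158-10596605, plus strand), a tetraspanin of the cell surface, had 197 and 95 reads in WT lung, 311 and 519 in KO lung, 1 and 6 in WT spleen and 0 in KO spleen. It rose from 24.5 ± 0.0834 to 67.1 ± 4.92 CPM in lung (SD, n = 2), a log2 fold change of 1.46 (SE 0.10, edgeR adjusted p = 9.95e-15). Cldn5, the claudin of endothelial tight junctions, had 52 and 10 reads in WT lung, 58 and 90 in KO lung and 0 in spleen. It rose by 1.23 (SE 0.24, edgeR adjusted p = 5.32e-05), while its 2 WT libraries stood apart at 6.47 and 2.59 CPM. Leaving out each library gave 0.90 to 2.21 for Cldn5, the highest without WT lung replicate 1, and 1.38 to 1.53 for Tspan7, so their order depends on 1 library. Both KO libraries were above both WT libraries for each of these genes.

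Smaller rises, of 0.41 to 0.59 on the log2 scale, were measured for 5 more endothelial genes. Tmem100, a membrane protein of lung endothelium, had 154 and 84 reads in WT lung and 159 and 203 in KO lung (0.57, SE 0.13, edgeR adjusted p = 0.000467). Cav1, the main coat protein of caveolae, had 143 and 69 reads in WT and 126 and 184 in KO (0.51, SE 0.14, edgeR adjusted p = 0.00199). Thbd, the thrombin receptor thrombomodulin, had 165 and 72 in WT and 164 and 199 in KO (0.59, SE 0.14, edgeR adjusted p = 0.000424). Each of these had at most 1 read in spleen. Epas1, the hypoxia-inducible factor HIF-2α, had 121 and 62 reads in WT lung, 118 and 163 in KO lung, 7 and 11 in WT spleen and 3 and 27 in KO spleen, and rose in lung by 0.58 (SE 0.14, edgeR adjusted p = 0.000758). For these genes too the lung groups did not overlap in CPM. With the coefficient of variation set at 0.2 none of the 4 was called (adjusted p from 0.202 to 0.333), and DESeq2 kept Thbd but not Tmem100, Cav1 and Epas1 (0.0696, 0.125 and 0.0864).

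Pecam1 (chr11:106654217-106750628, minus strand), the adhesion molecule CD31 of endothelium, platelets and leukocytes, was read at similar levels in both organs. It had 488 and 222 reads in WT lung, 392 and 575 in KO lung, 260 and 641 in WT spleen and 206 and 1775 in KO spleen. These reads correspond to 59.1 ± 2.24, 79.2 ± 1.42, 69.9 ± 7.04 and 67.6 ± 0.522 CPM (SD, n = 2). Pecam1 was thus lower in lung than in spleen in WT (log2 fold change -0.26, SE 0.08, edgeR adjusted p = 0.00473) and higher in KO (0.22, SE 0.07, edgeR adjusted p = 0.00443), with a rise in KO lung of 0.41 (SE 0.08, edgeR adjusted p = 2.59e-05). The organ difference in WT was lost without WT spleen replicate 2 (-0.13, adjusted p = 0.36) and that in KO without KO spleen replicate 2 (0.24, 0.0835) and with the GC trend removed (0.13, 0.0862), and DESeq2 called neither (0.114 and 0.102). With the coefficient of variation set at 0.2 none of the 3 was called (adjusted p = 0.678, 0.646 and 0.415).

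A pair of adhesion receptors was lower in KO lung. Adgrf5 (chr17:43360451-43459557, plus strand), an adhesion G protein-coupled receptor of lung endothelium and alveolar epithelium whose promoter is shown above, had 196 and 76 reads in WT lung, 70 and 89 in KO lung and 0 in spleen. It fell from 22.0 ± 3.31 to 13.2 ± 1.57 CPM (SD, n = 2), a log2 fold change of -0.80 (SE 0.16, edgeR adjusted p = 5.63e-05, 0.119 with the coefficient of variation set at 0.2). Adgrl4, a related receptor of endothelium, had 299 and 150 reads in WT lung, 145 and 228 in KO lung, 100 and 209 in WT spleen and 77 and 667 in KO spleen. It was higher in lung than in spleen by 0.62 on the log2 scale in WT (SE 0.11, edgeR adjusted p = 5.21e-06, 0.18 with the coefficient of variation set at 0.2) and by 0.26 in KO (SE 0.10, edgeR adjusted p = 0.0185). The call in KO was lost with DESeq2 (0.213), with the coefficient of variation set at 0.2 (0.611), without KO lung replicate 2 (0.174) and without KO spleen replicate 2 (0.179). Its fall of 0.31 on the log2 scale in lung (SE 0.10, edgeR adjusted p = 0.00949) was lost with DESeq2 (0.116), with library totals (0.0712), with the coefficient of variation set at 0.2 (0.58) and without KO lung replicate 1 (0.0591).

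Calcrl (chr2:84330626-84425411, minus strand), the receptor for calcitonin gene-related peptide and adrenomedullin, was well read in both organs. It had 538 and 228 reads in WT lung, 254 and 457 in KO lung, 163 and 329 in WT spleen and 134 and 1323 in KO spleen, or 63.0 ± 5.53, 57.1 ± 7.20, 39.6 ± 1.61 and 47.2 ± 4.90 CPM (SD, n = 2). Lung exceeded spleen by 0.71 on the log2 scale in WT (SE 0.09, edgeR adjusted p = 5.6e-08, 0.121 with the coefficient of variation set at 0.2) and by 0.23 in KO (SE 0.08, edgeR adjusted p = 0.0153), the latter lost without KO lung replicate 2 (0.07, adjusted p = 0.612) with DESeq2 (0.138) and with the coefficient of variation set at 0.2 (0.583). By genotype the lung groups overlapped, and Calcrl was not called there (log2 fold change -0.15, SE 0.09, edgeR adjusted p = 0.158), but it was without KO lung replicate 2 (-0.30, adjusted p = 0.0268). Its partner Ramp2, which makes Calcrl a receptor for adrenomedullin, had 31 and 7 reads in WT lung, 20 and 31 in KO lung and 0 in spleen. Spleen libraries thus held reads of Calcrl and none of this partner. Ramp2 shares 30.7% of its runs of 50 bases with another gene, so its reads may be split.

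Members not called in lung included the defining endothelial genes Cdh5, Kdr and Tek. Cdh5, the VE-cadherin of endothelial junctions, had 76 and 33 reads in WT lung and 23 and 57 in KO lung, and 0 in spleen (log2 fold change -0.49, SE 0.23, edgeR adjusted p = 0.0715). It was called lower with the GC trend removed (adjusted p = 0.0121) and without KO lung replicate 2 (0.0191). Kdr and Tek, the receptors for vascular endothelial growth factor and angiopoietins, had 21 and 7 (Kdr) and 49 and 19 reads (Tek) in WT lung, and 15 and 19 (Kdr) and 29 and 56 reads (Tek) in KO lung. Neither had a read in spleen, and the lung groups overlapped in CPM for both. Egfl7, an endothelial secreted protein, had 39 and 22 reads in WT lung, 34 and 44 in KO lung, 4 and 8 in WT spleen and 2 and 17 in KO spleen. Its lung groups did not overlap, but it was not called (log2 fold change 0.31, SE 0.25, edgeR adjusted p = 0.286). Tie1 had 7 reads in WT lung and 9 in KO lung and was not tested.

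Stromal genes split between rise and fall. Gpx3 (chr11:54902453-54910377, plus strand), the secreted glutathione peroxidase, had 110 and 55 reads in WT lung, 145 and 212 in KO lung, 0 in WT spleen and 0 and 2 in KO spleen. It rose by 1.07 (SE 0.14, edgeR adjusted p = 4.6e-08). Inmt, a methyltransferase abundant in lung, had 62 and 38 reads in WT and 91 and 140 in KO and rose by 1.16 (SE 0.18, edgeR adjusted p = 1.13e-06). Bgn, the proteoglycan biglycan, had 9 and 9 reads in WT and 23 and 39 in KO, a rise of 1.73 on the log2 scale. The rise was 1.10 without WT lung replicate 1. Bgn passed the filter on low counts only with its KO lung libraries, which favoured a rise. Its values are a description with no test.

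Matrix proteins on the other side were lower in KO. Sparc (chr11:55394500-55423183, minus strand), a matricellular protein of fibroblasts, endothelium and platelets, had 186 and 71 reads in WT lung, 71 and 118 in KO lung and 0 in spleen. Its fall of 0.47 on the log2 scale (SE 0.15, edgeR adjusted p = 0.00883) was lost without WT lung replicate 1 (adjusted p = 0.357), without KO lung replicate 1 (0.0604), with DESeq2 (0.221) and with the coefficient of variation set at 0.2 (0.426). Eln, which encodes elastin, had 17 and 8 reads in WT and 4 and 6 in KO, a fall of 1.35 on the log2 scale. It passed the filter on low counts through its WT lung libraries and so had to be lower in KO. Its values are a description with no test. The 6 platelet genes examined summed to 41.6 to 51.3 CPM in KO lung, 71.2 to 71.9 CPM in WT lung and 19.6 to 48.7 CPM in spleen, with Gp9 at 0 in all libraries. Of the 4 tested, 2 were lower in KO lung, where 26.4% of all genes tested were lower. Among them was Ppbp, with 170 and 78 reads in WT and 23 and 45 in KO (log2 fold change -1.90, SE 0.18, edgeR adjusted p = 4.89e-11). Gp1bb, with 290 and 145 reads in WT and 141 and 281 in KO, was not called (-0.09, SE 0.11, edgeR adjusted p = 0.509). The part of platelets in the fall of Sparc was not tested.

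The collagens were close to the floor. Col3a1 had 36 and 15 reads in WT lung and 14 and 20 in KO lung and was not called (log2 fold change -0.62, SE 0.32, edgeR adjusted p = 0.0967), though it was with the GC trend removed (adjusted p = 0.0279). Mgp, the matrix Gla protein, had 22 and 11 reads in WT and 13 and 27 in KO and was not called. Col1a1 went from 17 reads to 5 and Col1a2 from 2 to 14 between WT lung and KO lung. Dcn, the proteoglycan decorin, had 13 and 17. These genes had no read in spleen except Col1a2, with 2 and 3 reads in WT spleen and 0 in KO spleen.

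Shares of reads within a pair of genes do not depend on library scaling, and 6 pairs were compared, chosen after seeing the values. Sftpa1 took 7.97% and 7.25% of the reads on Sftpa1 and Sftpc in WT lung, and 15.1% and 14.6% in KO lung. Scgb1a1 took 36.4% and 34.9% of the reads on Scgb1a1 and Sftpc in WT, and 19.4% and 18.5% in KO. Tspan7 took 50.1% and 55.6% of the reads on Tspan7 and Adgrf5 in WT, and 81.6% and 85.4% in KO. In each of these pairs the 95% Wilson intervals of the 2 genotypes did not overlap. Gpx3 took 37.2% and 43.7% of the reads on Gpx3 and Sparc in WT, and 67.1% and 64.2% in KO. Scgb3a2 took 6.52% and 4.45% of its pair with Scgb1a1 in WT and 3.91% and 3.89% in KO, with intervals that overlapped.

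**Figure D4:**
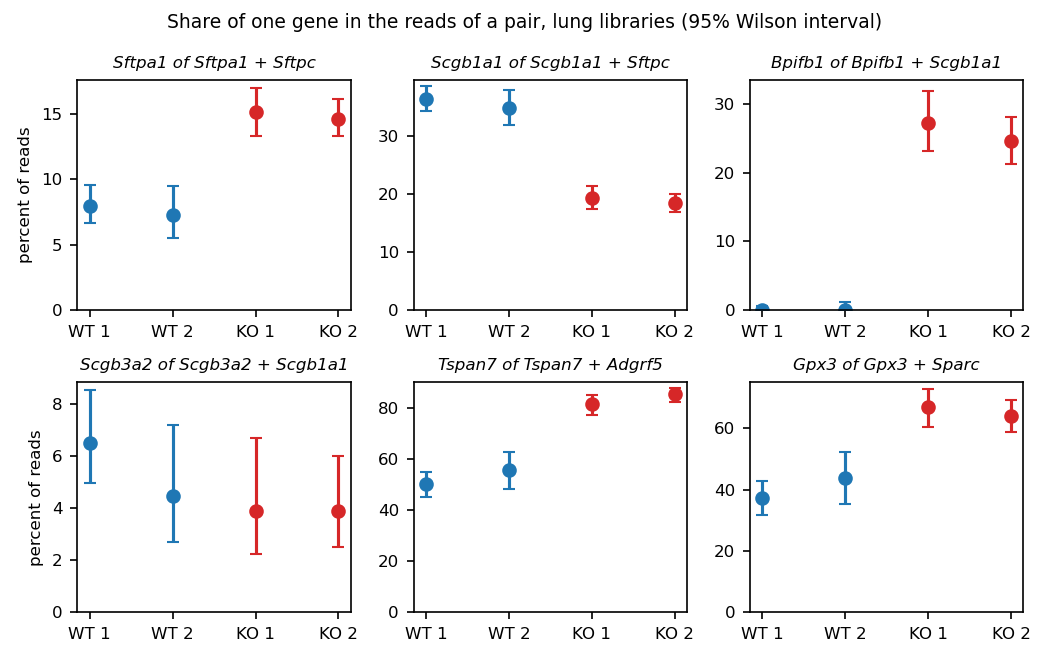
Percent of the reads on a pair of genes that fell on the first gene, in the 4 lung libraries (vertical axes start at 0, bars are 95% Wilson intervals for counting error). Sftpa1, Bpifb1, Tspan7 and Gpx3 take a larger share in both KO libraries than in both WT libraries, Scgb1a1 takes a smaller share against Sftpc, and the intervals overlap for Scgb3a2 against Scgb1a1.

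In spleen, most members gave nothing to compare between genotypes. Of the 41 members, 30 had 3 reads or fewer in each spleen group. Of the 31 tested, 2 were higher in KO and 1 lower, where 28.2% of all genes tested were higher and 28.9% lower. Scgb3a1 rose from 0 to 19 reads, at least 2.73-fold (edgeR adjusted p = 0.00229), Calcrl rose by 0.34 on the log2 scale (SE 0.09, edgeR adjusted p = 0.00151), and Tspan7 fell from 7 reads to 0, at least 5.42-fold (edgeR adjusted p = 0.000461). All 3 calls were lost without WT spleen replicate 2 (adjusted p = 0.0896, 0.0757 and 0.086), and those of Calcrl and Tspan7 also without KO spleen replicate 2 (0.446 and 0.165). Calcrl was also lost with DESeq2 (0.101), with the GC trend removed (0.253) and with the coefficient of variation set at 0.2 (0.682).

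The KO effect in lung was set against that in spleen for 10 of the 13 members with a read in both organs, those with more than 3 reads in at least 1 lung group and 1 spleen group, and 7 of the 10 were tested. Thbd, Gpx3 and Epcam fell short of that. Over all genes tested, 61.6% were called for this difference, and 5 of the 7 members were. Pecam1 rose in KO lung and was not called in spleen (log2 fold change -0.07, SE 0.07, edgeR adjusted p = 0.377). The difference of its effects was 0.48 on the log2 scale (SE 0.10, edgeR adjusted p = 0.000121). Calcrl differed by -0.48 (SE 0.13, edgeR adjusted p = 0.00108), Epas1 by 1.05 (SE 0.44, edgeR adjusted p = 0.0389) and Adgrl4 by -0.36 (SE 0.14, edgeR adjusted p = 0.0278). Tspan7 was also called (edgeR adjusted p = 1.35e-05), on 7 WT spleen reads and none in KO spleen. The call of Adgrl4 was lost without WT lung replicate 2 (adjusted p = 0.0579), KO lung replicate 1 (0.0832), WT spleen replicate 2 (0.12) or KO spleen replicate 2 (0.172), with DESeq2 (0.201), with library totals (0.234) and with the GC trend removed (0.321). That of Epas1 was lost without WT lung replicate 1 (0.0779), KO lung replicate 1 (0.0564), WT spleen replicate 1 (0.151) or 2 (0.0826) or KO spleen replicate 2 (0.262), with DESeq2 (0.125), with no filter (0.0639) and with the GC trend removed (0.165). That of Calcrl was lost without KO spleen replicate 2 (0.135), with DESeq2 (0.0577) and with the GC trend removed. With the coefficient of variation set at 0.2 the calls of Pecam1 (adjusted p = 0.49), Calcrl (0.571), Adgrl4 (0.629) and Epas1 (0.253) were all lost. Scgb3a1 (edgeR adjusted p = 0.0554) and Egfl7 (0.2) were not called, though Scgb3a1 was with the GC trend removed (0.0324) and without KO spleen replicate 2 (0.017).

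Other genes of the same cell types were followed as 11 lists of 75 genes in all. Of these, 17 were above the floor in all 4 lung libraries, and 9 of the 17 had no read in spleen, where that share over all genes was 0.866%. Of the 25 tested, 11 were higher in KO lung and 2 lower, but some passed the filter through their KO lung libraries. Of the 16 tested that were above the floor in all 4 lung libraries, 5 were higher and 2 lower, where 29.2% of all genes tested were higher and 26.4% lower, so these lists stood near the background. The 2 falls include Cxcl14, which passed the filter through its WT lung libraries. The endothelial list held 3 of the 5 rises among 6 such genes, with Clec14a, an endothelial lectin, at 56 and 32 reads in WT lung, 63 and 102 in KO lung and 0 in spleen (log2 fold change 0.86, SE 0.20, edgeR adjusted p = 0.000414). Car4, the carbonic anhydrase of lung capillaries, had 67 and 32 reads in WT and 51 and 84 in KO and was not called (edgeR adjusted p = 0.0853).

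Alveolar type 2 genes outside the surfactant proteins were also examined. Napsa, a protease that processes surfactant protein precursors, had 664 and 275 reads in WT lung, 434 and 642 in KO lung and 294 to 2191 reads in the spleen libraries, so it was read in both organs. By genotype in lung Napsa was not called (edgeR adjusted p = 0.0605). Muc1 had 88 and 41 reads in WT lung, 73 and 115 in KO lung and 26 to 228 in the spleen libraries. It was called higher in KO lung (log2 fold change 0.50, SE 0.16, edgeR adjusted p = 0.00825). Nkx2-1, the transcription factor that defines lung epithelium, had no read in any library. In the alveolar type 1 list Emp2 had 44 and 23 reads in WT, 35 and 63 in KO and 0 in spleen, and was not called (edgeR adjusted p = 0.0682). Clic5 of that list had 20 and 12 reads in WT lung, 25 and 31 in KO lung and 7 to 110 in spleen. It was called higher in KO lung (log2 fold change 0.76, SE 0.33, edgeR adjusted p = 0.0445). Among airway genes Bpifa1, of the same family as Bpifb1, had 11 and 4 reads in WT lung and none in KO lung, the reverse of Bpifb1, and was not tested.

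The remaining lists were sparse. Lyve1, of lymphatic endothelium, had 12 and 3 reads in WT lung and 13 and 23 in KO lung. In the fibroblast list Npnt had 7 and 1 reads in WT and 12 and 40 in KO. Both were at or under the floor in a WT library and are given with no test. Cxcl14 had 19 and 9 reads in WT and 4 and 8 in KO (log2 fold change -1.25). It passed the filter on low counts through its WT lung libraries and so had to be lower in KO, and it is given with no test. The smooth muscle and pericyte list had no call among 2 tested, and ciliated cell genes had none tested. Cardiac muscle genes held 1 fall, Myl4, which was also read in spleen at 12 to 109 reads. The 3 mesothelial genes Msln, Upk3b and Wt1 had no read in any library, and 4 of the 6 genes of splenic stroma had none.

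Markers of blood cells were examined beside these genes, and not all of their lists differed by organ or by genotype. Erythroid genes, mostly globins, summed to 24.7 to 27.7 CPM in WT lung, 49.5 to 53.3 CPM in KO lung and at most 1.05 CPM in spleen, with 4 of 5 above the floor in all 4 lung libraries and 3 higher in KO lung. Alveolar macrophage genes summed to 3.37 to 4.48 CPM in WT lung and 2.45 to 3.48 CPM in KO lung, with Ear1 at 0, and to at most 0.999 CPM in spleen. Other myeloid genes summed to 159 to 163 CPM in WT lung, 170 to 181 in KO lung and 166 to 176 in spleen, with Adgre1, S100a8 and S100a9 at 0. B cell genes summed to 298 to 310 CPM in WT lung and 262 to 268 in KO lung, and to 579 to 710 in spleen, while 3 of 6 were called higher in KO lung and 1 lower. Ighm, with most of the reads, fell by 0.28 on the log2 scale (SE 0.05, edgeR adjusted p = 3.3e-06), and Igkc, with 19 and 9 reads in WT and 66 and 113 in KO, rose by 2.63 (SE 0.23, edgeR adjusted p = 2.96e-12). T cell genes summed to 67.3 to 68.6 CPM in WT lung, 48.5 to 50.9 in KO lung and 158 to 178 in spleen, with 1 of 4 tested lower in KO lung. Beside these counts of calls, 29.2% of all genes tested were higher in KO lung and 26.4% lower. The part of these cells in the values of the structural genes was not tested.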

How the data were processed

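The 8 libraries were grouped by organ and genotype from their labels. The authors aligned 50 bp single-end reads to mm10 with HISAT2 2.1.0 and counted them on genes with HTSeq (0.11.1 per the submitters' processing notes), and the deposited values are raw read counts per gene symbol. The strand setting, the annotation used for counting and how reads matching several genes were treated are not given in the sources used here. The rows of HTSeq for uncounted reads were left out of library sizes.

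Fits were made with edgeR 4.0.16 under R 4.3.3 (limma 3.58.1): filterByExpr over the 4 groups, TMM scaling, 1 mean per group over all 8 libraries, the quasi-likelihood test, and Benjamini-Hochberg adjustment over 12595 genes with a threshold of 0.05. Contrasts were lung against spleen in each genotype, KO against WT in each organ, and the difference of the KO effects. Standard errors were derived from the F statistic. CPM used TMM-scaled library sizes. The floor was 3 reads per library, and over the group for bounds. DESeq2 1.42.0, other scalings, other filters, a fit of 4 libraries, a replicate block, an assumed coefficient of variation of 0.2, removal of a GC trend and leaving out each library were alternatives. Scripts were tested on simulated data.

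The members and lists were chosen with earlier results of these data known. All 41 members could be named: values in every library were given for members called in any contrast and for the 4 with the highest mean lung CPM in each class, and other members by ranges and counts. Genes of other lists were given as counts, naming at most the 2 with the highest mean lung CPM, besides genes at 0. Exon lengths and overlaps came from GENCODE M21 (GRCm38), where 25 of the 41 members shared no run of 50 bases with another gene, and Cyp2f2, Krt8, Ramp2 and Egfl7 shared over 5%. Exons of 3 members overlapped a gene on the same strand and those of 4 a gene on the other strand.

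Equal replicate numbers come from the labels, which do not say that they pair libraries. Over 5103 genes, the deviations of equally numbered libraries correlated at -0.0139 (lung, WT and KO), 0.169 (spleen), 0.00447 (WT, lung and spleen) and -0.0758 (KO), so the numbers were not taken as pairs. Over all genes with at least 10 reads, the variance between the 2 libraries of a group was 1.18 to 1.38 times that of counting. A spread this close to counting cannot tell separate mice from technical repeats. The 2 libraries of a group were fitted as replicates.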

Additional observations from a re-analysis of the deposited data

Results flagged for a closer look

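For 5 of the 7 members tested, all 5 endothelial, the KO effect was called different between lung and spleen by the test of the difference itself (edgeR, adjusted p under 0.05). The lung effect minus the spleen effect was 0.48 on the log2 scale for Pecam1, -0.48 for Calcrl, -0.36 for Adgrl4 and 1.05 for Epas1. For Tspan7 the fitted difference was 6.70, a value that depends on the prior count because spleen KO had no read, and it is no bound. Over all genes tested, 61.6% were called for this difference, so 5 of 7 is near that share. DESeq2 kept 2 of the calls, and a coefficient of variation set at 0.2 kept 1. Those of Calcrl, Adgrl4 and Epas1 were lost under both settings and with the GC trend removed.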

How the results depend on the processing

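Under library totals, the lung ratios of KO to WT were 1.68 (epithelial), 1.36 (endothelial) and 1.45 (stromal), and the endothelial ratio of lung to spleen in WT was 2.1. Leaving out the member with the most reads gave KO to WT 1.37 (epithelial, Sftpc) and 1.13 (stromal, Gpx3), and lung to spleen 159 in WT and 47.9 in KO (epithelial) and 3.73 and 4.26 (endothelial, Pecam1). Without members known in leukocytes or platelets, KO to WT was 1.22 (endothelial) and 1.73 (stromal), and lung to spleen was 3.25 and 3.53 (endothelial, WT and KO), 85.3 (stromal, WT) and 265 (epithelial, KO). Without members above the floor in every spleen library, an alternative chosen after seeing the data, the endothelial values were 1.52, 48.6 and 138. Members above the floor in spleen numbered 3 in each genotype at over 10 reads and 8 in each when 1 library sufficed.

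DESeq2 called 12 members for KO against WT in lung and 2 for the difference of KO effects, and an assumed coefficient of variation of 0.2 called 10 and 1. Shares over all genes were not counted under the alternatives. In spleen, no filter gave 5 calls and the 4-library fit 1, and removing the GC trend gave 3 calls for the difference. The cause was not tested. Values that changed sign were not called: with the GC trend removed, Calcrl (0.12) and Egfl7 (-0.03) in lung and Adgrl4 in spleen (-0.07, and -0.02 with library totals), Mgp in lung without KO lung replicate 2 (-0.06, in a leave-one-out range up to 0.41) and Pecam1 in spleen without WT spleen replicate 2 (0.06, in a range down to -0.15).

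Leaving out each library gave 27 to 33 members called by organ in WT, 28 to 35 in KO, 18 to 23 by genotype in lung, 0 to 5 in spleen and 3 to 7 for the difference. Ratios of KO to WT in lung ran from 1.51 to 1.64 (epithelial), 1.24 to 1.32 (endothelial) and 1.33 to 1.41 (stromal). Ratios of lung to spleen ran from 287 to 537, 2.19 to 2.33 and 114 to 163 in WT, and from 118 to 144, 2.71 to 2.87 and 1020 to 2090 in KO. The epithelial 537 in WT was without WT spleen replicate 2. The 0 calls in spleen came without WT spleen replicate 2, the 5 without KO spleen replicate 1 and a count of 1 without KO spleen replicate 2, and the difference had 3 calls without either WT spleen replicate 2 or KO spleen replicate 2.

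With replicate number as a block, 23 members were called by genotype in lung (16 higher, 7 lower), Cdh5 being added, and the block changed no other count. Stromal ratios to spleen rest on at most 5 spleen reads.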
